A study of Homo sapiens with 6 samples.

Results

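The proteins that fold, inspect and, when folding fails, discard secretory and membrane proteins sit in the endoplasmic reticulum (ER), and 45 human genes for them were followed here. They were taken from a list of gene symbols whose rule names roles in the ER and no measured value, though the list was drawn up with earlier results of these data known. The list covers 12 chaperones with their partners, 3 genes of the lectin cycle, 11 enzymes of disulfide formation, 10 genes of ER-associated degradation, 6 stress sensors and their transcription factors, and 3 genes for entry into the ER. Of the 45, 44 had a value among the 19437 genes of the table, and OS9 is not analysed here. DERL3, a member of the derlin family, did not pass the filter on low values. It had 0.431, 0.863 and 0.362 CPM (read counts scaled to library size) in TEADi libraries, against 0.298, 0.531 and 0.345 CPM in GFP libraries, so 43 genes were tested. The cells were SCC9, an established human line from an oral squamous carcinoma. The TEADi group was transduced with an adenovirus that expresses TEADi, a protein inhibitor of the TEAD transcription factors, and the GFP group with an adenovirus that expresses green fluorescent protein. Both groups had the same multiplicity of infection (25) and the same 48 h before RNA was taken. The medium was also the same, DMEM/F12 with 10% fetal bovine serum and 400 ng/ml hydrocortisone. Whether transduction, or an effect of the virus itself, was equal in both groups was not tested. There were 3 libraries a group, with the letters A to C. Nothing in the labels says that the letters stand for separate cultures, so p-values reflect library-to-library spread only, possibly of technical origin.

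TEAD proteins bind DNA and are switched on by the coactivators YAP and TAZ, the outputs of the Hippo pathway. In the ER, HSPA5 (also called BiP or GRP78) and HSP90B1 (GRP94) hold unfolded chains, calnexin and calreticulin hold chains by their sugar, and protein disulfide isomerases form and rearrange disulfide bonds. Chains that do not fold are trimmed by mannosidases of the EDEM group, passed through the membrane by the SYVN1 (HRD1) and SEL1L complex and destroyed by the proteasome. Unfolded chains also switch on 3 membrane sensors, IRE1 (gene ERN1), PERK (EIF2AK3) and ATF6. IRE1 splices XBP1 mRNA so that it encodes an active factor, ATF6 is cut to release a factor, and PERK slows translation and favours that of ATF4. XBP1 and ATF6 raise chaperone and degradation genes. Many chaperone genes answer through the ER stress response element (ERSE), which textbooks give as CCAAT, any 9 bases and CCACG.

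Levels were CPM scaled by the authors with TMM factors, with totals of 827124 to 915558 CPM per library. ANKRD1, a YAP and TEAD target, averaged 1.82 ± 0.102 CPM in TEADi libraries and 80.0 ± 4.38 CPM in GFP libraries (SD, n = 3 each), and CYR61 and CTGF, further targets, were also called lower. Of 10 epithelial markers, 4 passed the filter, and their list summed to 164 to 175 CPM in TEADi libraries and 271 to 347 CPM in GFP libraries. KRT5, a basal keratin, was at most 0.302 CPM in TEADi libraries and in GFP libraries stood at 21.7 CPM in A, 17.2 CPM in B and 0.414 CPM in C, so GFP library C stands apart from A and B. The 4 fibroblast genes in the table summed to 362 to 406 CPM against 387 to 548 CPM and went both ways (COL1A1 at 254 and 379 CPM, PDGFRA at 18.5 and 1.26 CPM), CD68 (the 1 immune marker in the table) to 712 to 784 CPM against 280 to 286 CPM, and the 2 endothelial genes to at most 0.241 CPM against 0.357 CPM, in TEADi and GFP libraries in each case. The only plasma cell marker in the table, POU2AF1, reached 0.173 CPM in TEADi libraries and 0.379 CPM in GFP libraries. The part of these marker differences in the results was not tested. In bulk RNA, fewer cells of a type and less RNA per cell cannot be told apart.

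ER folding and degradation genes were mostly higher in TEADi cells than in GFP cells, by modest amounts. Of the 43 tested, 28 were called higher (65.1%), 2 were called lower (4.65%) and 13 passed in neither direction. A call here is an adjusted p under 0.05 from limma on log2(CPM + 1), adjusted by Benjamini-Hochberg across the 13640 genes in the fit. The background was broad, since 60.8% of all genes were called, 25.5% higher and 35.3% lower. The median log2 fold change of the 43 genes was 0.29, within a range of -0.22 to 0.91, and that of all genes was -0.07. Pseudocount and filter both bear on such values: adding 1 understates the change of genes with few CPM. All 3 TEADi libraries lay above all 3 GFP libraries for 31 of the genes, against 27.7% of all genes, and all below for 4, against 38.1% (65.8% either way). No gene of the group reached 2-fold, and 19 of the 28 higher calls were under 0.5 on the log2 scale. At 0.5 or more, 9 were called higher, where 15.1% of all genes were called higher and 16.7% lower by that rule. Among genes with a mean of at least 10 CPM, 26 of 41 members were called higher and 2 lower, beside 24.2% and 42.5% of the 9249 genes of that level. With GFP library C as the only control, the median log2 fold change was 0.27 for the members and -0.06 for all genes. In that fit the spread comes from the TEADi libraries alone, and the single GFP library is assumed to vary as they do.

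**Figure D1:**
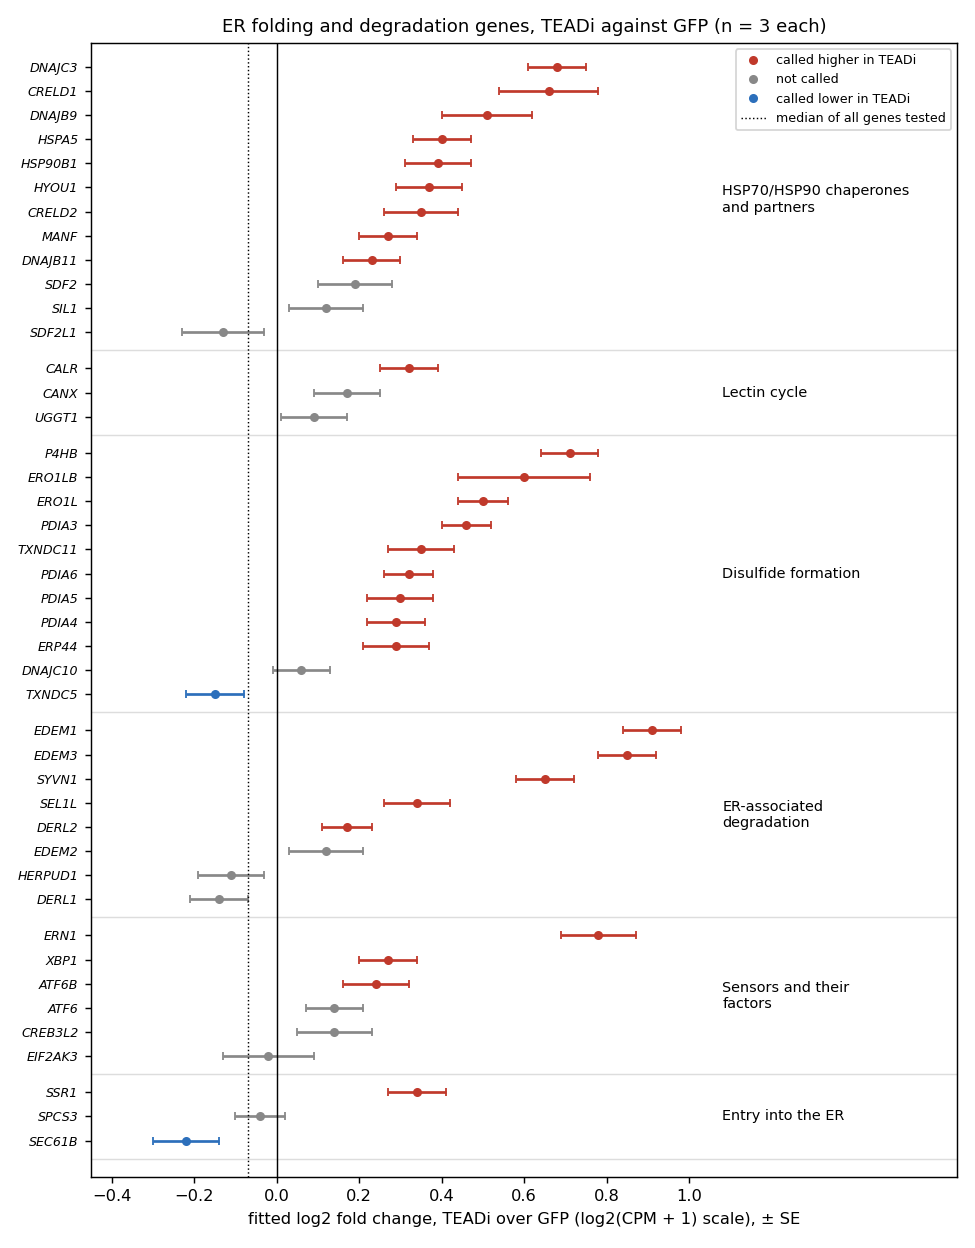
Fitted log2 fold change of each tested gene, TEADi over GFP, on the log2(CPM + 1) scale (x axis) with its standard error (bars, n = 3 libraries a group), grouped by role and ordered within each group. Most points lie right of 0 and of the dotted median of all genes (-0.07), from EDEM1 at 0.91 to SEC61B at -0.22.

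The summed level of all 44 genes was 9812, 9953 and 10179 CPM in TEADi libraries, against 7545, 8033 and 8209 CPM in GFP libraries, each in the order of the letters. The means were 9981 ± 185 and 7929 ± 344 CPM (SD, n = 3 each), a ratio of 1.26, and the groups did not overlap. Genes with many reads dominate such sums. By role, the ratio of the summed means was 1.40 for degradation, 1.31 for disulfide formation, 1.30 for chaperones, 1.18 for sensors and factors, 1.15 for the lectin cycle and 1.14 for entry. TEADi library C was the highest of its 3 for 28 of 43 genes, and TEADi library A was the lowest for 21 and B for 20. In the GFP group library A was the lowest and library C the highest for 23 genes each.

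**Figure D2:**
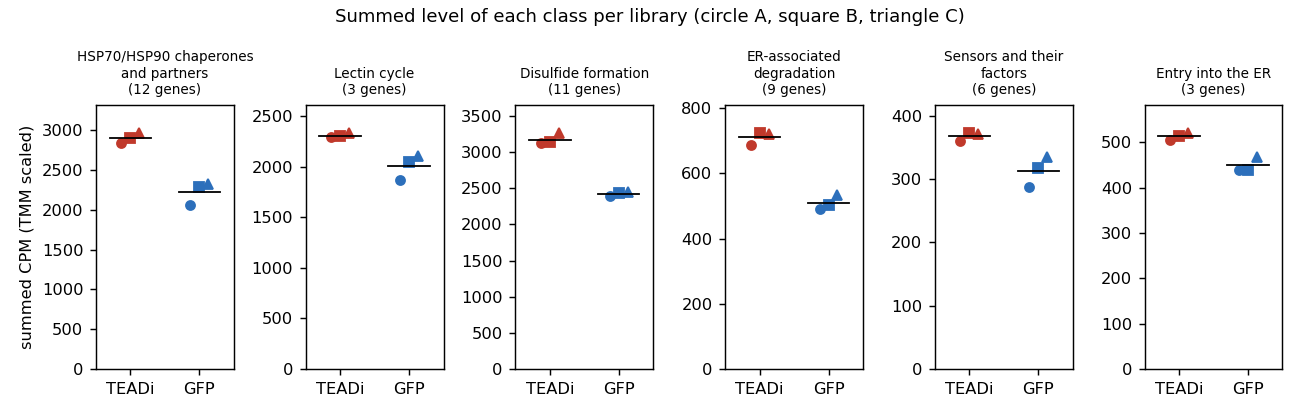
Summed CPM of the genes of each role in each library (points, shape gives the letter) with group means (lines), and TEADi left of GFP on every panel. In all 6 panels the 3 TEADi libraries lie above the 3 GFP libraries. The ratio of means was highest for ER-associated degradation (711 ± 19.8 and 508.9 ± 22.2 CPM, SD), and the difference in CPM for disulfide formation (3176 ± 79.1 and 2425 ± 26.6 CPM).

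The known stress element can be read in the promoters of several members, and the matches are printed because they show which members carry it in an exact form. RefSeq promoters of GRCh38.p14, from 250 bases before to 50 bases after each listed start, were found for 41 of the 44 genes and for 27305 genes in all, and both strands were searched. The ERSE, CCAAT then any 9 bases then CCACG, was found in 8 of the 41 members (19.5%) and in 25 of all the genes (0.0916%). The members were listed for roles in the ER, so these shares are a description and not a test. In the lines below, each read 5′ to 3′ on the strand named, capitals mark the fixed bases. CANX has 4 listed starts, and PDIA6 and XBP1 have 2 each. For these, the distance is from the first listed start whose window holds the match.
HSPA5, chr9:125241391-125241409, minus strand, 66 bases before the start: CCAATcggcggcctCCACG
HSP90B1, chr12:103930216-103930234, plus strand, 194 bases before the start: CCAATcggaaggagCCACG
HSP90B1, chr12:103930321-103930339, minus strand, 89 bases before the start: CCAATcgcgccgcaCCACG
CRELD2, chr22:49918554-49918572, minus strand, 80 bases before the start: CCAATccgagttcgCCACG
CALR, chr19:12938384-12938402, minus strand, 225 bases before the start: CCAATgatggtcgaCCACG
CANX, chr5:179698778-179698796, plus strand, 151 bases before the start: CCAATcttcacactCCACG
PDIA6, chr2:10812853-10812871, minus strand, 86 bases before the start: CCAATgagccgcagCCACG
ERO1LB, chr1:236282183-236282201, plus strand, 243 bases before the start: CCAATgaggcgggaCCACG
XBP1, chr22:28800603-28800621, minus strand, 52 bases before the start: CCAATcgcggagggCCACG

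The shorter ERSE-II, ATTGG then any 1 base then CCACG, was found in 3 members (7.32%) and in 19 of all the genes (0.0696%). Capitals again mark the fixed bases, and HYOU1 holds a pair of matches.
HYOU1, chr11:119057380-119057390, plus strand, 185 bases before the start: ATTGGaCCACG
HYOU1, chr11:119057274-119057284, plus strand, 79 bases before the start: ATTGGaCCACG
SDF2L1, chr22:21642114-21642124, minus strand, 188 bases before the start: ATTGGtCCACG
HERPUD1, chr16:56932025-56932035, plus strand, 117 bases before the start: ATTGGgCCACG

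Of the 8 genes with an ERSE match, 7 were called higher and none lower, CANX was not called, and their median log2 fold change was 0.34. Of the 33 without one, 20 were called higher and 2 lower, with a median of 0.27. Over all genes 25.5% were called higher, and the calls of other genes with a match were not followed. A link between the match and the change was not tested. The 3 genes with ERSE-II held 1 higher call, HYOU1, and a median of -0.11. TGACGTG, a core of the unfolded protein response element, was found in HYOU1 (where it overlaps the ERSE-II match farther from the start), TXNDC5, TXNDC11 and DNAJC10, which is 9.76% of members and 2.4% of all genes. GGAATG, the core that TEAD proteins bind, was found in CRELD1, ERN1 and CREB3L2, which is 7.32% of members and 16.7% of all genes. A match is a description of the letters, and no match says only that these letters are not in the window. The 300-base window of HSPA5 (chr9:125241294-125241593, minus strand), with its exact ERSE in capitals, is set beside that of EDEM1 (chr3:5187457-5187756, plus strand), the gene with the largest fitted change of the group, which holds none of the 4 motifs.
HSPA5: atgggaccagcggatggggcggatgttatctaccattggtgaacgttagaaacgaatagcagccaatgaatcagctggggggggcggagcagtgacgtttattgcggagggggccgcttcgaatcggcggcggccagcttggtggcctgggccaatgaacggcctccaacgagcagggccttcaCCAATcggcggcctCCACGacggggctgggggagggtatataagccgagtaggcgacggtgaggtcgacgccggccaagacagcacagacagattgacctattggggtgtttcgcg
EDEM1: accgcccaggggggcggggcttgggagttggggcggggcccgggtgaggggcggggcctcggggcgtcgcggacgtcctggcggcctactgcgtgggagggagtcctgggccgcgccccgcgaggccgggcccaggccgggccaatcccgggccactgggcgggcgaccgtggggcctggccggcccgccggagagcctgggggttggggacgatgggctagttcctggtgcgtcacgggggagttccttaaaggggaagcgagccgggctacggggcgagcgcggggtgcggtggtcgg

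Chaperones of the HSP70 and HSP90 type, counted together with their partners and further helpers, were mostly higher in TEADi cells. Of 12 genes, 9 were called higher, none lower and 3 in neither direction, with a median log2 fold change of 0.36. Over all genes 25.5% were called higher and 35.3% lower, and the counts of each role below stand beside these shares. HSPA5, the HSP70 of the ER (hg19 chr9:127997132-128003609, minus strand), had 743, 779 and 779 CPM in TEADi libraries, against 537, 592 and 624 CPM in GFP libraries. The TEADi libraries were all higher, by 31.3% of the mean, with a log2 fold change of 0.40 ± 0.07 (SE) and a limma adjusted p of 2.2e-04. HSP90B1, the HSP90 of the ER (chr12:104323885-104347423, plus strand), had 1216, 1232 and 1257 CPM in TEADi libraries, against 878, 991 and 969 CPM in GFP libraries. It too did not overlap between groups, and its log2 fold change was 0.39 ± 0.08 (SE, limma adjusted p 4.1e-04). Both carry the ERSE printed above, HSP90B1 on each strand. HYOU1, a large HSP70 relative that exchanges the nucleotide of HSPA5, averaged 461 ± 11.9 CPM in TEADi libraries and 356 ± 35.5 CPM in GFP libraries (SD, n = 3 each), and was called higher. SIL1, which has the same task, averaged 23.9 ± 1.76 CPM in TEADi libraries and 21.9 ± 1.63 CPM in GFP libraries, overlapped and was not called (log2 fold change 0.12, limma adjusted p 0.283).

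Of the J-domain partners of HSPA5, which deliver substrates to it, DNAJC3, DNAJB9 and DNAJB11 were called higher, and DNAJC10, given with the disulfide enzymes, was not called. DNAJC3 (chr13:96329393-96447243, plus strand), a lumenal co-chaperone also known as an inhibitor of eIF2alpha kinases, had 132, 146 and 144 CPM in TEADi libraries, against 87.3, 85.7 and 90.0 CPM in GFP libraries. Its groups were far apart, with a ratio of means of 1.61 and a log2 fold change of 0.68 ± 0.07 (SE, limma adjusted p 1.5e-07). DNAJB9 (chr7:108210012-108215294, plus strand), a J-domain protein that also holds IRE1 in check, had 15.4, 17.8 and 17.8 CPM in TEADi libraries, against 12.0, 10.3 and 12.5 CPM in GFP libraries. It was higher in every TEADi library, at a log2 fold change of 0.51 ± 0.11 (SE, limma adjusted p 6.0e-04). DNAJB11 averaged 114 ± 4.38 CPM in TEADi libraries and 97.7 ± 4.45 CPM in GFP libraries (SD, n = 3 each), and was called higher (limma adjusted p 0.00689).

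Among the further helpers, CRELD1, CRELD2 and MANF were called higher. CRELD1 (chr3:9975506-9987097, plus strand), a membrane protein with EGF-like domains, had 8.71, 8.70 and 8.75 CPM in TEADi libraries, against 4.70, 5.54 and 5.24 CPM in GFP libraries. The TEADi values lay within 0.05 CPM of each other and above every GFP value, and the log2 fold change was 0.66 ± 0.12 (SE, limma adjusted p 1.5e-04). Its relative CRELD2, known as a target of ER stress, averaged 24.1 ± 0.967 CPM in TEADi libraries and 18.7 ± 0.598 CPM in GFP libraries and was called higher, as was MANF, a cofactor of HSPA5, at 75.6 ± 1.95 and 62.4 ± 1.24 CPM in TEADi and GFP libraries (SD, n = 3 each). SDF2 and SDF2L1, close relatives found in chaperone complexes, were not called. SDF2 averaged 23.8 CPM in TEADi libraries and 20.7 CPM in GFP libraries without overlap (limma adjusted p 0.0749), and SDF2L1 13.3 CPM in TEADi libraries and 14.7 CPM in GFP libraries with overlap (limma adjusted p 0.286).

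**Figure D3:**
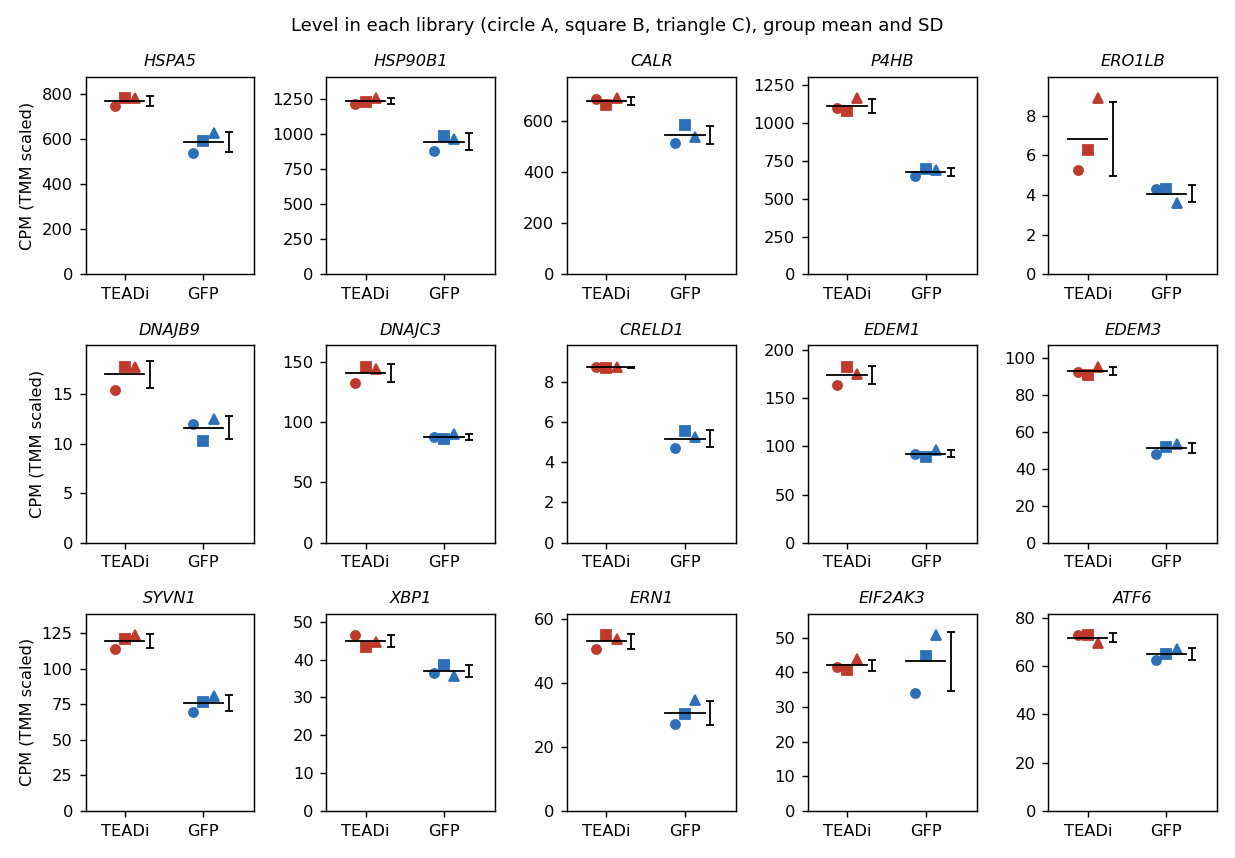
Level in CPM (y axis, from 0) of 15 genes in each of the 3 TEADi and 3 GFP libraries (points, shape gives the letter), with group means (lines) and SD (bars). The 15 are the 9 genes called at 0.5 or more on the log2 scale and others named whatever their result. Groups do not overlap in 14 panels, which follows in part from this choice, and in 65.8% of all genes. EIF2AK3 is the exception, with GFP libraries from 34.0 to 50.8 CPM around the TEADi range of 40.7 to 43.8 CPM.

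In the lectin cycle, which binds chains by their glucose-tagged sugar, 1 of 3 genes was called higher and none lower, beside 25.5% and 35.3% of all genes. CALR, calreticulin, the soluble lectin (chr19:13049392-13055303, plus strand), had 687, 662 and 689 CPM in TEADi libraries, against 515, 583 and 538 CPM in GFP libraries. The TEADi libraries were all higher and the log2 fold change was 0.32 ± 0.07 (SE, limma adjusted p 0.001). CANX, calnexin, the membrane-bound lectin, averaged 1337 ± 20.8 CPM in TEADi libraries and 1187 ± 79.6 CPM in GFP libraries (SD, n = 3 each). Its groups did not overlap, but its limma adjusted p was 0.0726, and it passed without GFP library A (0.0497) or without GFP library C (0.0377). UGGT1, the sensor that puts glucose back on misfolded chains, averaged 291 ± 21.6 CPM in TEADi libraries and 273 ± 28.4 CPM in GFP libraries and overlapped (limma adjusted p 0.321).

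Disulfide formation held 9 higher calls, 1 lower call and 1 gene called in neither direction among 11, with a median log2 fold change of 0.32. P4HB, the classical protein disulfide isomerase and a subunit of collagen prolyl hydroxylase (chr17:79801035-79818570, minus strand), had 1096, 1080 and 1163 CPM in TEADi libraries, against 647, 696 and 692 CPM in GFP libraries. Every TEADi library was higher, with a ratio of means of 1.64 and a log2 fold change of 0.71 ± 0.07 (SE, limma adjusted p 3.3e-07). ERO1L, the oxidase that recharges the isomerases (chr14:53106634-53162618, minus strand), had 215, 219 and 223 CPM in TEADi libraries, against 158, 148 and 159 CPM in GFP libraries. It did not overlap between groups, with a ratio of means of 1.41 and a limma adjusted p of 3.1e-06. Its relative ERO1LB (chr1:236378855-236445319, minus strand) had 5.26, 6.26 and 8.87 CPM in TEADi libraries, against 4.29, 4.32 and 3.59 CPM in GFP libraries. TEADi library C was the highest and all TEADi libraries exceeded all GFP libraries, at a log2 fold change of 0.60 ± 0.16 (SE, limma adjusted p 0.00371).

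PDIA3, which works with the lectins, averaged 515 ± 1.76 CPM in TEADi libraries and 375 ± 10.3 CPM in GFP libraries (SD, n = 3 each), a ratio of 1.37, and was called higher. PDIA4, PDIA5, PDIA6, ERP44 (which retains ERO1 enzymes in the early secretory pathway) and TXNDC11 were also called higher, with ratios of 1.22, 1.24, 1.25, 1.23 and 1.29. TXNDC5, another member of the family, was called lower at 386, 407 and 410 CPM in TEADi libraries, against 453, 437 and 450 CPM in GFP libraries. Those groups were close, and the call was near the threshold (log2 fold change -0.15 ± 0.07, SE, limma adjusted p 0.0494). Without any 1 library other than GFP A it was lost, with adjusted p of 0.0742 without GFP B, 0.102 without GFP C, and 0.186, 0.112 and 0.0793 without TEADi A, B and C. DNAJC10, a reductase that serves degradation, averaged 153 ± 6.62 CPM in TEADi libraries and 147 ± 6.66 CPM in GFP libraries and overlapped (limma adjusted p 0.469).

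ER-associated degradation held the largest changes of the group. Of 8 genes tested, 5 were called higher, none lower and 3 in neither direction, with a median log2 fold change of 0.26. EDEM1, a mannosidase-like factor that marks misfolded glycoproteins for disposal (chr3:5229331-5261642, plus strand), had 164, 183 and 175 CPM in TEADi libraries, against 92.0, 88.9 and 96.1 CPM in GFP libraries. The lowest TEADi library was far above the highest GFP library, with a ratio of means of 1.88 and a log2 fold change of 0.91 ± 0.07 (SE, limma adjusted p 5.1e-09). EDEM3, a mannosidase of the same group (chr1:184659365-184724047, minus strand), had 92.7, 91.1 and 95.6 CPM in TEADi libraries, against 48.2, 51.8 and 53.8 CPM in GFP libraries. It separated as clearly, with a ratio of 1.82 and a log2 fold change of 0.85 ± 0.07 (SE, limma adjusted p 1.7e-08). EDEM2, which acts first on the sugar, had 24.4, 26.2 and 25.8 CPM in TEADi libraries, against 23.0, 21.5 and 25.9 CPM in GFP libraries. GFP library C lay inside the TEADi range, and EDEM2 was not called (log2 fold change 0.12 ± 0.09, SE, limma adjusted p 0.276).

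Of the ubiquitin ligase complex, SYVN1 and SEL1L were called higher and HERPUD1 was not called. SYVN1, the HRD1 ligase (chr11:64889252-64902004, minus strand), had 114, 121 and 124 CPM in TEADi libraries, against 69.7, 76.5 and 81.1 CPM in GFP libraries. Every TEADi library was higher, with a ratio of 1.57 and a log2 fold change of 0.65 ± 0.07 (SE, limma adjusted p 6.8e-07). SEL1L, its adaptor, averaged 143 ± 5.56 CPM in TEADi libraries and 113 ± 12.1 CPM in GFP libraries (SD, n = 3 each) and was called higher at a ratio of 1.26. HERPUD1, a stress-induced scaffold of that complex, averaged 24.5 ± 0.591 CPM in TEADi libraries and 26.5 ± 0.701 CPM in GFP libraries. All its TEADi libraries were lower, but it was not called (limma adjusted p 0.261). Derlins, membrane proteins of the exit channel, did not share a direction in their means: DERL2 averaged 85.9 ± 1.55 CPM in TEADi libraries and 76.2 ± 2.44 CPM in GFP libraries, and DERL1 had 44.2, 46.0 and 46.1 CPM in TEADi libraries, against 50.2, 51.7 and 48.1 CPM in GFP libraries. DERL2 was called higher (limma adjusted p 0.0294) and DERL1 was not called (0.109). In the authors' deposited table DERL1 was lower at an adjusted p under 0.05, with a ratio of 0.908. The DERL2 call was lost without GFP B (0.109), GFP C (0.0521), TEADi A (0.0799), TEADi B (0.0622) or TEADi C (0.087).

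Differences between related genes were set out as ratios within each library, for 11 pairs chosen after the values were seen. An exact two-sided permutation test over 3 against 3 libraries cannot give less than 0.1, so no pair could pass 0.05. EDEM1 over EDEM2 was 6.72, 6.97 and 6.79 in TEADi libraries, against 3.99, 4.14 and 3.72 in GFP libraries. EDEM3 over EDEM2 was 3.80, 3.48 and 3.70 in TEADi libraries, against 2.09, 2.41 and 2.08 in GFP libraries. Both ratios separated the groups, with differences of 0.79 and 0.74 on the log2 scale and an exact permutation p of 0.1 (0.138 adjusted over the 11 pairs). EDEM1 over EDEM3 overlapped, at 1.77, 2.01 and 1.83 in TEADi libraries, against 1.91, 1.72 and 1.79 in GFP libraries (exact permutation p 0.6, adjusted 0.6). DERL2 over DERL1 was 1.96, 1.83 and 1.89 in TEADi libraries, against 1.55, 1.42 and 1.60 in GFP libraries. That ratio and those of CRELD1 over CRELD2 (log2 difference 0.39), SDF2 over SDF2L1 (0.33) and CALR over CANX (0.15) also separated the groups, at the same smallest exact p of 0.1 and adjusted 0.138. ERO1L over ERO1LB overlapped, with a log2 difference of -0.21 (exact permutation p 0.5, adjusted 0.55).

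**Figure D4:**
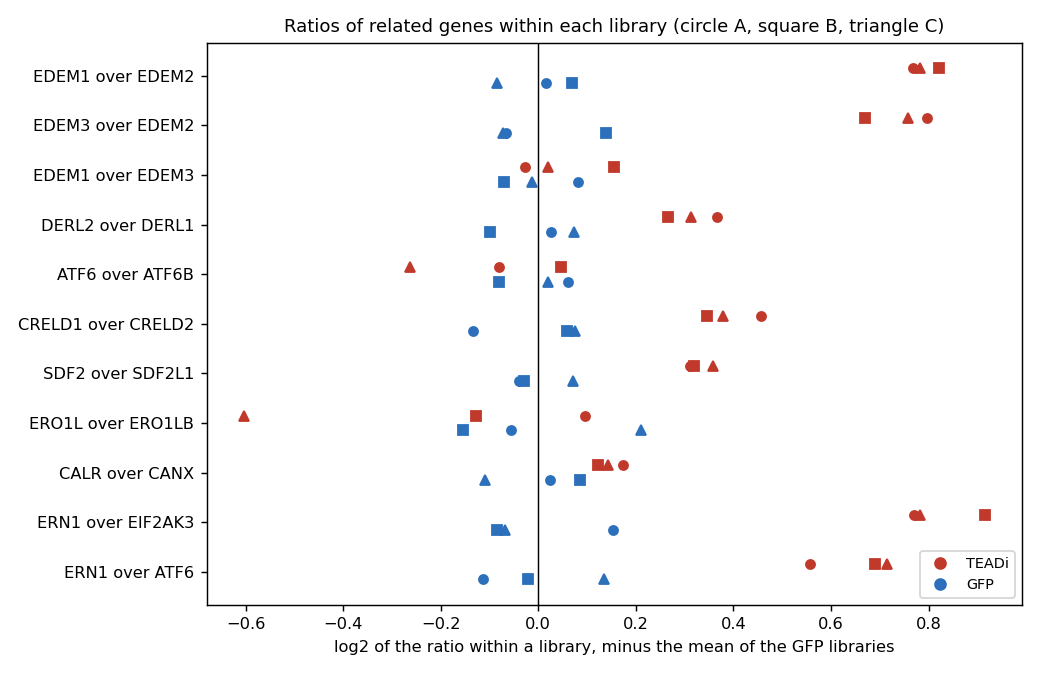
Ratio of 11 pairs of related genes within each library, as log2 minus the mean of the GFP libraries (x axis), with TEADi points above GFP points for each pair and the shape giving the letter. The groups separate in 8 pairs, with EDEM1 over EDEM2 (0.79) and ERN1 over EIF2AK3 (0.82) farthest apart, and overlap in EDEM1 over EDEM3, ATF6 over ATF6B and ERO1L over ERO1LB. The pairs were chosen after the values were seen, and 65.8% of single genes also do not overlap between groups. The count of 8 is therefore a description only.

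Among the 3 sensors, the gene for IRE1 was called higher and those for PERK and ATF6 were not. ERN1, the kinase and nuclease IRE1 (chr17:62116502-62208179, minus strand), had 50.5, 55.1 and 53.7 CPM in TEADi libraries, against 27.1, 30.2 and 34.7 CPM in GFP libraries. All TEADi libraries were higher, with a ratio of means of 1.73 and a log2 fold change of 0.78 ± 0.09 (SE, limma adjusted p 9.7e-07). EIF2AK3, the kinase PERK (chr2:88856259-88927094, minus strand), had 41.5, 40.7 and 43.8 CPM in TEADi libraries, against 34.0, 44.7 and 50.8 CPM in GFP libraries. The GFP libraries spread around the TEADi libraries, and the log2 fold change of -0.02 ± 0.11 (SE, limma adjusted p 0.873) gave no direction. Against GFP library C alone the log2 fold change of EIF2AK3 was -0.27, and without that library 0.10. It was also positive without GFP B (0.01) and with equal totals, median-ratio factors or quantile normalization (0.06 each), so its sign was not stable. ATF6 (chr1:161736084-161933860, plus strand) had 73.0, 72.7 and 69.7 CPM in TEADi libraries, against 62.4, 65.1 and 67.2 CPM in GFP libraries. Its groups did not overlap but lay close, and it was not called (log2 fold change 0.14 ± 0.07, SE, limma adjusted p 0.0739). ATF6 did pass with equal totals (limma adjusted p 0.00805), median-ratio factors (0.00799) and quantile normalization (0.00536). ATF6 was also higher in the authors' deposited table at an adjusted p under 0.05, with a log2 fold change of 0.15. The contrast with ERN1 in calls therefore depends on the scaling and on the test used.

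The difference between sensors was itself compared within libraries. ERN1 over EIF2AK3 was 1.22, 1.35 and 1.23 in TEADi libraries, against 0.795, 0.675 and 0.682 in GFP libraries, and ERN1 over ATF6 was 0.691, 0.758 and 0.771 in TEADi libraries, against 0.434, 0.463 and 0.516 in GFP libraries. Neither ratio overlapped between groups, with log2 differences of 0.82 and 0.65, each at the smallest exact permutation p of 0.1 (adjusted 0.138). XBP1, the factor that IRE1 activates (chr22:29190543-29196585, minus strand), had 46.6, 43.4 and 44.8 CPM in TEADi libraries, against 36.5, 38.7 and 35.8 CPM in GFP libraries. It was higher in every TEADi library (log2 fold change 0.27 ± 0.07, SE, limma adjusted p 0.00447), and its level per gene does not separate the spliced from the unspliced form. ATF6B, a relative of ATF6, averaged 75.2 ± 6.36 CPM in TEADi libraries and 63.4 ± 4.52 CPM in GFP libraries (SD, n = 3 each) and was called higher (limma adjusted p 0.0131), a call lost without TEADi C (0.0891). ATF6 over ATF6B overlapped, with a log2 difference of -0.10 (exact permutation p 0.4, adjusted 0.489). CREB3L2, another membrane-bound factor that is cut on the way to the nucleus, averaged 81.3 ± 9.53 CPM in TEADi libraries and 73.8 ± 6.62 CPM in GFP libraries and was not called (limma adjusted p 0.181), though it passed without GFP C (0.049).

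Entry into the ER showed no shared direction, with 1 higher call, 1 lower call and 1 uncalled gene, beside 25.5% higher and 35.3% lower calls over all genes. SSR1, a subunit of the translocon-associated complex TRAP, averaged 353 ± 7.23 CPM in TEADi libraries and 278 ± 17.7 CPM in GFP libraries (SD, n = 3 each) and was called higher at a ratio of 1.27. SEC61B, a subunit of the translocation channel, had 41.6, 42.1 and 39.4 CPM in TEADi libraries, against 50.3, 51.0 and 42.6 CPM in GFP libraries. The TEADi libraries were all lower, with GFP library C next to them (log2 fold change -0.22 ± 0.08, SE, limma adjusted p 0.03). The call was lost without GFP A (0.0634), GFP B (0.126), TEADi A (0.0575) or TEADi C (0.107), and with GFP C alone the log2 fold change was -0.05. SPCS3, a subunit of signal peptidase, averaged 120 ± 3.79 CPM in TEADi libraries and 123 ± 5.34 CPM in GFP libraries and overlapped (limma adjusted p 0.611).

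Other genes of the secretory pathway were called in both directions. Over 8 further lists with 131 genes tested, 41 were called higher (31.3%), 32 lower (24.4%) and 58 in neither direction. Over all genes the shares were 25.5% higher and 35.3% lower, and the counts of each list below stand beside these. Prolyl isomerases and further chaperones held 8 higher calls and 1 lower call among 13, with a median log2 fold change of 0.30. Those with the smallest p were PPIB (338 ± 8.91 CPM in TEADi libraries and 266 ± 8.58 CPM in GFP libraries), FKBP9 (265 ± 6.94 and 185 ± 4.83 CPM) and DNAJB12 (72.1 ± 3.21 and 52.0 ± 1.55 CPM, SD, n = 3 each). Glucosidases and cargo lectins held 4 higher calls and none lower among 8 (median 0.19). They included MOGS, the glucosidase that makes the first cut of the sugar, at 105 ± 3.51 CPM in TEADi libraries and 70.4 ± 9.06 CPM in GFP libraries, UGGT2 at a ratio of 1.43 and the cargo receptor subunit MCFD2 at 1.38.

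Targeting and translocation, the steps before folding, held 2 higher calls, 8 lower calls and 16 uncalled genes among 26, with a median log2 fold change of -0.10, beside the 25.5% higher and 35.3% lower calls of all genes. SSR3, a partner of SSR1 in TRAP, averaged 343 ± 6.43 CPM in TEADi libraries and 520 ± 8.58 CPM in GFP libraries (SD, n = 3 each, log2 fold change -0.60, limma adjusted p 5.0e-07). SRP72 of the signal recognition particle and SRPRB of its receptor were also called lower, with log2 fold changes of -0.45 and -0.34. N-glycosylation held 5 higher and 3 lower calls among 23 (median 0.04), with DAD1 at 0.23, ALG11 at 0.33 and ALG14 at -0.40. Further genes of ER-associated degradation were divided, with 9 higher and 8 lower calls among 26 (median -0.02). The ubiquitin-conjugating enzyme UBE2J2 averaged 47.4 ± 1.81 CPM in TEADi libraries and 82.6 ± 9.30 CPM in GFP libraries, UBE2G1 was lower at -0.55, and the mannosidase MAN1B1 was higher at 77.6 ± 5.04 CPM in TEADi libraries against 53.1 ± 1.55 CPM in GFP libraries.

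Single genes in these lists changed by more than any of the 43. Further disulfide enzymes held 4 higher and 4 lower calls among 15 (median -0.04). TMX4, a membrane-bound thioredoxin-like protein, averaged 161 ± 3.73 CPM in TEADi libraries and 50.9 ± 1.94 CPM in GFP libraries (SD, n = 3 each), a ratio of 3.17, while PRDX4 and VKORC1L1 were called lower at log2 fold changes of -0.47 and -0.65. Membrane-bound factors and the proteases that cut them held 4 higher and 2 lower calls among 8 (median 0.12). CREB3L1, a relative of CREB3L2 with roles in collagen secretion in mouse bone, averaged 24.9 ± 0.94 CPM in TEADi libraries and 82.2 ± 4.24 CPM in GFP libraries (log2 fold change -1.69, limma adjusted p 6.3e-12), SREBF2 was lower at -0.38 and NFE2L1 higher at 0.41. Effectors of the stress response, many of them downstream of PERK, held 5 higher and 6 lower calls among 12 tested (median -0.29). The lower calls were ATF4, DDIT3, TRIB3, PPP1R15A, ASNS and EIF2S1, and the higher calls VLDLR, PPP1R15B, BCAP31, TMBIM6 and WFS1. ATF4, the factor favoured when PERK is active, averaged 91.9 ± 4.41 CPM in TEADi libraries and 129 ± 2.84 CPM in GFP libraries (log2 fold change -0.49, limma adjusted p 6.0e-06), and ASNS, an amino acid enzyme that ATF4 controls, 7.48 ± 1.22 CPM in TEADi libraries and 23.9 ± 0.591 CPM in GFP libraries (-1.56, limma adjusted p 5.3e-09). VLDLR, a lipoprotein receptor, was higher at 11.3 ± 1.57 CPM in TEADi libraries and 2.56 ± 0.63 CPM in GFP libraries (1.79, limma adjusted p 2.6e-08). ATF4 protein was not measured, and it is controlled in large part at translation.

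**Figure D5:**
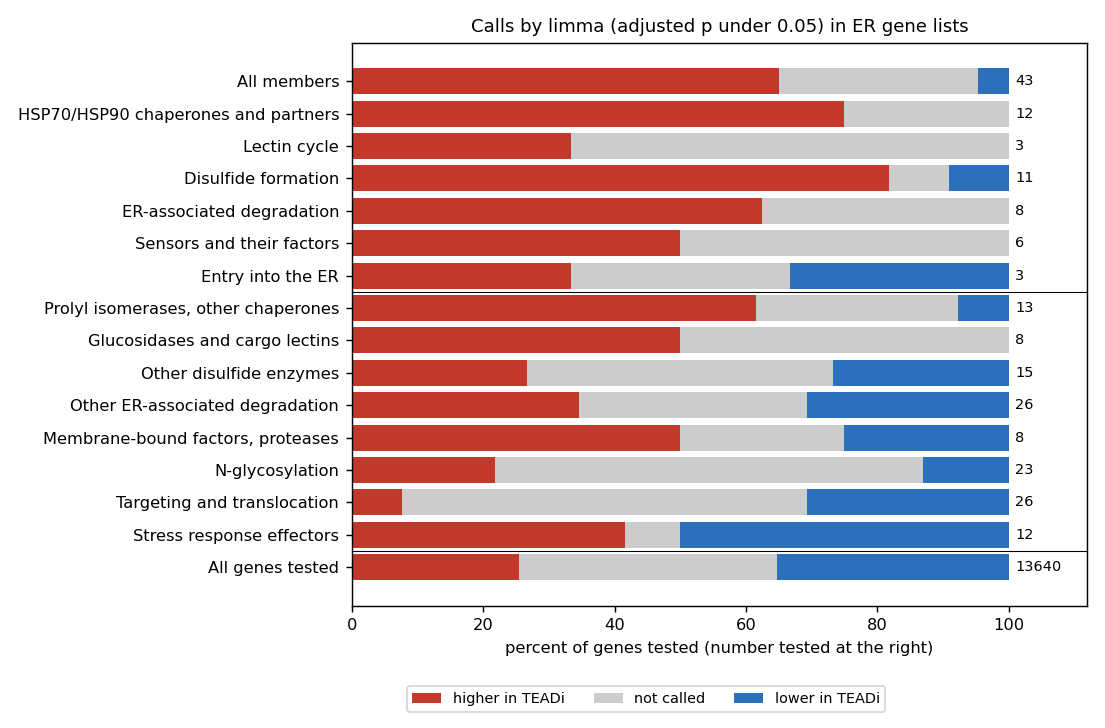
Share of genes called higher in TEADi, called in neither direction and called lower (x axis, percent of the genes tested, whose number stands at the right) for the 43 genes, their 6 roles, 8 further ER lists and all 13640 genes. Higher calls make up 65.1% of the 43 genes and 25.5% of all genes. Lower calls outnumber higher ones in the translocation and stress effector lists, as they do over all genes.

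How many members were called moved with the scaling used. After every library was set to the same total, 33 members were called higher and none lower, beside 30.7% and 30.2% of all genes. Median-ratio factors also gave 33 and none, beside 30.9% and 30.2%, and quantile normalization 34 and none, beside 28.1% and 33.1%. In the authors' deposited table, 30 members were higher and 3 lower at an adjusted p under 0.05, beside 18.9% and 24.5% of its genes. Positions of 13 members overlap another gene whose level is at least 10% of theirs, and the use of strand in counting is not given in the sources used here. Among them are SYVN1 (with FAU and MRPL49), DNAJB9 (with PNPLA8 and THAP5), ERO1LB (with GPR137B) and EDEM2 (with MMP24-AS1 and PROCR), so part of their values could come from the neighbour. HYOU1 and ATF6B are listed on alternate sequences of hg19, so no position is given for them.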

How the data were processed

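Gene levels were CPM scaled by the authors with TMM factors (3 TEADi and 3 GFP libraries). The deposited comparison table also gives the authors' p-values and the ratio of TEADi over GFP, from a test its header does not name. Per the submitters' processing notes, which give neither role nor order, the tools were STAR 2.5.1, Trimmomatic 0.36 and Partek 8.0.19.0819, with the build hg19. The counting tool, annotation release and strand use are not given in the sources used here. The smallest value in each library stands for no read. Of the low values, 83.3% to 84.4% came within 0.1 of whole multiples of that value, too few, so whole reads could not be recovered and no count test was run. Symbols on several rows were summed; no member was among them.

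The 13640 genes that reached 1 CPM in 3 or more libraries entered limma 3.58.1 in R 4.3.3, with lmFit and eBayes with a trend, on log2(CPM + 1). Two-sided p-values were adjusted by Benjamini-Hochberg across these genes and called at 0.05. The script was checked on simulated data. Single ratios were compared with exact permutation tests (Python 3.11.15, scipy 1.17.1). The members and lists were chosen with earlier results of these data known, so no list was tested as a set. Values in every library are given for called members at 0.5 or more on the log2 scale and for HSPA5, HSP90B1, CALR, XBP1, ATF6, ERN1 and EIF2AK3; the other members shown that way, and the 11 pairs, were chosen after their values were seen. Of each further list, up to 3 called genes with the smallest p are named, and of the stress effectors every called gene. Promoter sequences are from RefSeq, GRCh38.p14. Alternatives covered scaling, filter, pseudocount, the trend, a block by letter, GFP library C alone, each library left out and the authors' deposited values. The number of libraries limits the precision, and the depth in reads is not stated.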

Additional observations from a re-analysis of the deposited data

How the results depend on the processing

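Of the 30 called members, 25 kept their call and direction in all 17 alternatives, the authors' deposited values among them. The exceptions were TXNDC5, SEC61B, DERL2, ATF6B and DNAJB11. How many of all called genes kept theirs was not counted. The median log2 fold change of members, 0.29 as reported, was 0.37 under each of the 3 other scalings (equal totals, quantile, median-ratio). The number of members called lower, 2 as reported, was 0 under each of those scalings, with no filter and with no trend, and 0 to 1 with each library left out. Members called higher numbered 26 to 29 and the median was 0.27 to 0.32 with each library left out, beside 2695 to 3431 higher calls over all genes. Direction changed for 5 genes that were not called: EIF2AK3 was 0.06 under each of the 3 scalings, 0.01 without GFP B and 0.10 without GFP C, its highest value, its lowest with 1 library left out being -0.18, in the reported direction, without GFP A; SPCS3 was 0.04 with equal totals or median-ratio factors and 0.06 after quantile normalization; and with GFP C alone UGGT1 was -0.07, EDEM2 -0.02 and CREB3L2 -0.00. The cause was not tested. SDF2, CANX, DNAJC10, ATF6 and CREB3L2 were called higher under all 3 scalings. Whether the letters A, B and C pair the libraries cannot be told from 3 libraries a group. Deviations of same-lettered libraries correlated at 0.08, -0.06 and -0.02, and TEADi B correlated best with GFP C (0.13). With the letter as a replicate block, 27 members were called higher and 1 lower, beside 3489 and 4743 of all genes. The calls of TXNDC5 and DERL2 were lost there.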
